A study of Saccharomyces cerevisiae with 6 samples.

Results

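The carnitine shuttle genes of Saccharomyces cerevisiae were examined in root and aerial cells of colony biofilms. The group holds 4 genes, taken by their locus names from the 10239 loci counted: CAT2 (YML042W), YAT1 (YAR035W), YAT2 (YER024W) and CRC1 (YOR100C). All 4 passed the filter on low counts and were among the 7971 loci tested. Root cells are the invasive cells that grew through a membrane into the agar, and aerial cells are those that stayed above it. Both came from colonies of BR-F, a wild diploid strain, grown for 3 days at 28 °C on medium with 3% glycerol, 1% yeast extract and 0.3% agar. No treatment or mutation separated the cell types, and every sample pooled many colonies. RNA from 3 root and 3 aerial samples, described in the study's methods as independent biological replicates, was depleted of ribosomal RNA and sequenced with strand information. Root pellets carried traces of agar.

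Yeast cells burn fatty acids only in peroxisomes, and the acetyl-CoA made there, like that made in the cytosol, cannot cross the inner mitochondrial membrane. A carnitine acetyltransferase moves the acetyl group onto carnitine, a carrier in the inner membrane takes acetylcarnitine into the matrix, and a transferase in the matrix gives acetyl-CoA back for the TCA cycle. Cat2 is the transferase of peroxisomes and of the mitochondrial matrix, Yat1 is associated with the outer mitochondrial membrane, and Yat2 is cytosolic. Crc1 is the carnitine carrier of the inner membrane. Yeast does not make carnitine and takes it up from the medium. Peroxisomes also release acetyl units without carnitine, as citrate made by Cit2, the citrate synthase of the glyoxylate cycle.

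The genes lie on 4 chromosomes of the R64 reference, each as a single uninterrupted coding sequence. CAT2 is on the plus strand at chrXIII:192788-194800, YAT1 on the plus strand at chrI:190193-192256, YAT2 on the plus strand at chrV:202192-204963 and CRC1 on the minus strand at chrXV:513295-514278. Their coding sequences are 2013, 2064, 2772 and 984 bases long. No other coding sequence of R64 gave a BLAST match to any of the 4 at an E-value of 0.001, so none has a near-identical copy in that reference.

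The 300 bases before each start codon are shown because the genes differ there in matches to the letters of a motif tied to growth on non-fermentable carbon. This is the carbon source response element (CSRE), the site bound by Cat8 and Sip4, activators of gluconeogenic genes. Each sequence runs 5′ to 3′ on the strand of its gene and ends at the base before the start codon, from the RefSeq R64 sequence of a laboratory strain, not from BR-F. Capitals mark the CSRE in YAT1 and YAT2, and the core site of Adr1 (TTGGAG or TTGGGG), an activator of peroxisomal and ethanol-use genes, in CAT2 and YAT2. The windows are chrXIII:192488-192787 for CAT2, chrI:189893-190192 for YAT1, chrV:201892-202191 for YAT2 and chrXV:514279-514578 for CRC1.
CAT2: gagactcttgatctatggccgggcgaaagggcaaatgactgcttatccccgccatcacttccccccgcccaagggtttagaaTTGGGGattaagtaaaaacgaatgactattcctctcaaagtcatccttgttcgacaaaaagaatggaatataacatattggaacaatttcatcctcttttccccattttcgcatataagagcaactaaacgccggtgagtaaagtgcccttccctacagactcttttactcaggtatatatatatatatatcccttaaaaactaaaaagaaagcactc
YAT1: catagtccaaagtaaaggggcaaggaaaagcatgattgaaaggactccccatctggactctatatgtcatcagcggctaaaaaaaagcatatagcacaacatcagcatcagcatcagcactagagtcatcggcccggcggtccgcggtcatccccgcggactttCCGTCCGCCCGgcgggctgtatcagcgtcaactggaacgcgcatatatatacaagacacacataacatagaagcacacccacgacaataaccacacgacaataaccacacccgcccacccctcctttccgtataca
YAT2: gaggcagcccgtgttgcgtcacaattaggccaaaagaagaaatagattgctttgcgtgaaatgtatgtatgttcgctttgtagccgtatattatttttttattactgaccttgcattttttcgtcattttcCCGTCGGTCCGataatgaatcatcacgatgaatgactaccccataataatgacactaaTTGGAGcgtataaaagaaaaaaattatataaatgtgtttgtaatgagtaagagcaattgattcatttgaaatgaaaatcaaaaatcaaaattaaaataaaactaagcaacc
CRC1: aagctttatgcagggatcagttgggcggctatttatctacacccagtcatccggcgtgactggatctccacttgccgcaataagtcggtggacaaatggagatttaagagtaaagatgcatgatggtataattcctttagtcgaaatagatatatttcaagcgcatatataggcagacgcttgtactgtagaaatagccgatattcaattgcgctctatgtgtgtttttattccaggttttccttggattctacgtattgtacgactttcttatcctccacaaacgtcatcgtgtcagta

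The CSRE matched in 13 of 6001 nuclear promoter windows of this length (0.217%), and 2 of the 13 belong to YAT1 and YAT2. The glyoxylate cycle and gluconeogenesis genes ICL1, MLS1, FBP1 and PCK1 are not among the 13. A window without a match therefore does not show that CAT2 or CRC1 lacks the element. It starts 136 bases before the start codon of YAT1 and 169 bases before that of YAT2. The Adr1 core matched in 15.2% of windows, and it starts 218 bases before CAT2 and 111 bases before YAT2. The R box (GTCAC), to which the Rtg1 and Rtg3 regulators of CIT2 bind, matched in 26.5% of windows, including those of YAT2 and CRC1. The match of YAT2 lies 283 to 279 bases before its start codon. Only 255 bases separate YAT2 from the gene before it, PRO3, so this match and the start of the YAT2 window lie inside PRO3. The oleate element (CGG and CCG separated by 15 to 18 bases), the site of the Oaf1 and Pip2 activators of β-oxidation genes, matched in 4.65% of windows. Of the 4 genes it was matched only in YAT1, at 2 overlapping positions, and the second of these runs 3 bases into the CSRE. All motifs were searched on both strands, and a match is a match of letters only.

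**Figure D1:**
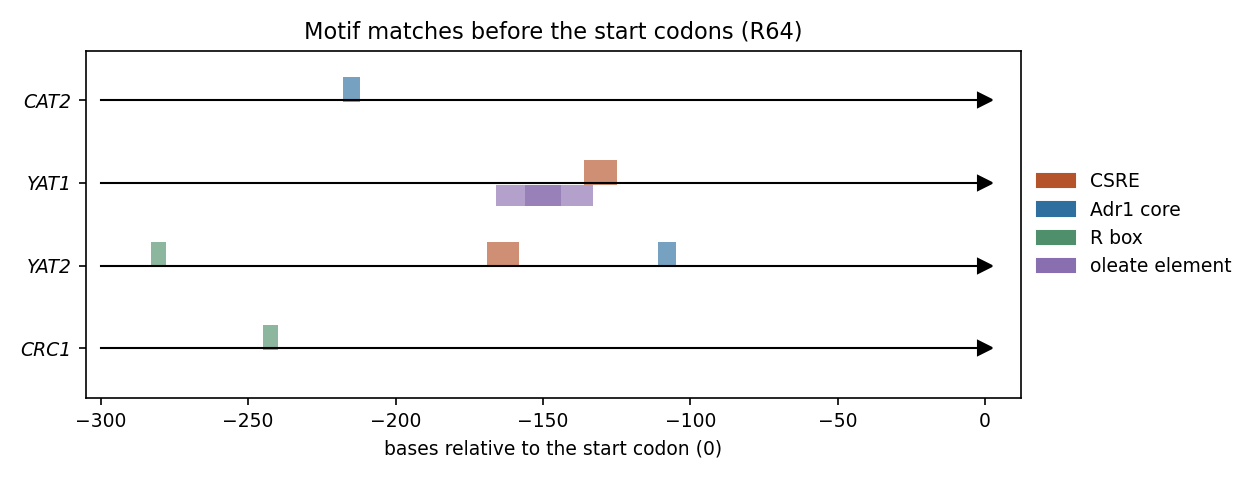
Positions of motif matches in the 300 bases before the start codons of the 4 genes. The x axis is the distance in bases from the start codon (arrowhead at 0), and coloured boxes span each match, with the oleate element drawn under the line. CSRE boxes stand before YAT1 and YAT2, starting at 136 and 169 bases, and no CSRE box stands before CAT2 or CRC1.

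In root cells, 3 of the 4 genes were upregulated, while CAT2 did not pass the test and was lower. CRC1 was 4.36-fold higher in root cells, YAT1 2.23-fold and YAT2 2.20-fold. The call required a 2-fold difference or more together with an adjusted p under 0.05 in edgeR's quasi-likelihood F test, where p-values of all tested loci were adjusted together by Benjamini-Hochberg. Of all loci tested, 10.8% were called higher in root cells, 9.2% lower and 20.0% in either direction. Levels are given in CPM, which are counts per 1000000 counts of a TMM-adjusted library, and log2 fold changes are root over aerial. The 3 libraries of a cell type did not overlap those of the other for any of the 4 genes, which was also true of 48.5% of all loci tested. In pooled cells, a lower share of cells that express a gene cannot be told apart from less RNA per cell.

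CRC1, which encodes the inner-membrane carnitine carrier, was at 541, 365 and 504 CPM in root replicates 1, 2 and 3, against 117, 90.8 and 116 CPM in aerial replicates 1, 2 and 3. Every root library was far above every aerial one, and the spread within each cell type was small beside that gap. The means were 470.3 ± 92.7 CPM in root cells and 107.8 ± 14.8 CPM in aerial cells (SD, n = 3 each). The log2 fold change was 2.13 with a standard error of 0.23 (edgeR adjusted p = 0.000761). It ranked 65 from the top among the 5873 protein-coding loci tested. CRC1 was called in every alternative, including each in which 1 library was left out, with a log2 fold change of at least 2.02.

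YAT2, which encodes the cytosolic transferase, was at 1501, 1275 and 1649 CPM in root cells, against 818, 664 and 533 CPM in aerial cells. It had the most counts of the 4 genes in root cells. The means were 1475 ± 188 CPM in root cells and 671 ± 143 CPM in aerial cells (SD, n = 3 each). The log2 fold change was 1.14 with a standard error of 0.25 (edgeR adjusted p = 0.00992). Without aerial replicate 3, the lowest library, it was 0.99 (adjusted p = 0.0271) and missed the 2-fold limit.

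YAT1, which encodes the outer-membrane transferase, was at 416, 275 and 395 CPM in root cells, against 231, 108 and 149 CPM in aerial cells. The groups did not overlap, but aerial replicate 1 was 2.15 times aerial replicate 2, the widest spread of any of the 4 genes within a cell type. The means were 362 ± 76.2 CPM in root cells and 163 ± 62.7 CPM in aerial cells (SD, n = 3 each), and the log2 fold change was 1.16 with a standard error of 0.30 (edgeR adjusted p = 0.0195). The call rested on several libraries. The adjusted p was 0.0745 without root replicate 1, 0.0581 without root replicate 3 and 0.0698 without aerial replicate 3, and the log2 fold change was 0.93 (adjusted p = 0.0254) without aerial replicate 2.

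CAT2, which encodes the transferase of peroxisomes and mitochondria, was at 710, 585 and 713 CPM in root cells, against 1136, 758 and 965 CPM in aerial cells. Every root library was below every aerial one. The means were 669 ± 73.1 CPM in root cells and 953 ± 189 CPM in aerial cells (SD, n = 3 each). The log2 fold change was -0.51 with a standard error of 0.24, and it did not pass the test (edgeR adjusted p = 0.13, unadjusted p = 0.0585, DESeq2 adjusted p = 0.0917). Without aerial replicate 2, the lowest aerial library, the adjusted p was 0.0388 at a log2 fold change of -0.65, still under 2-fold.

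**Figure D2:**
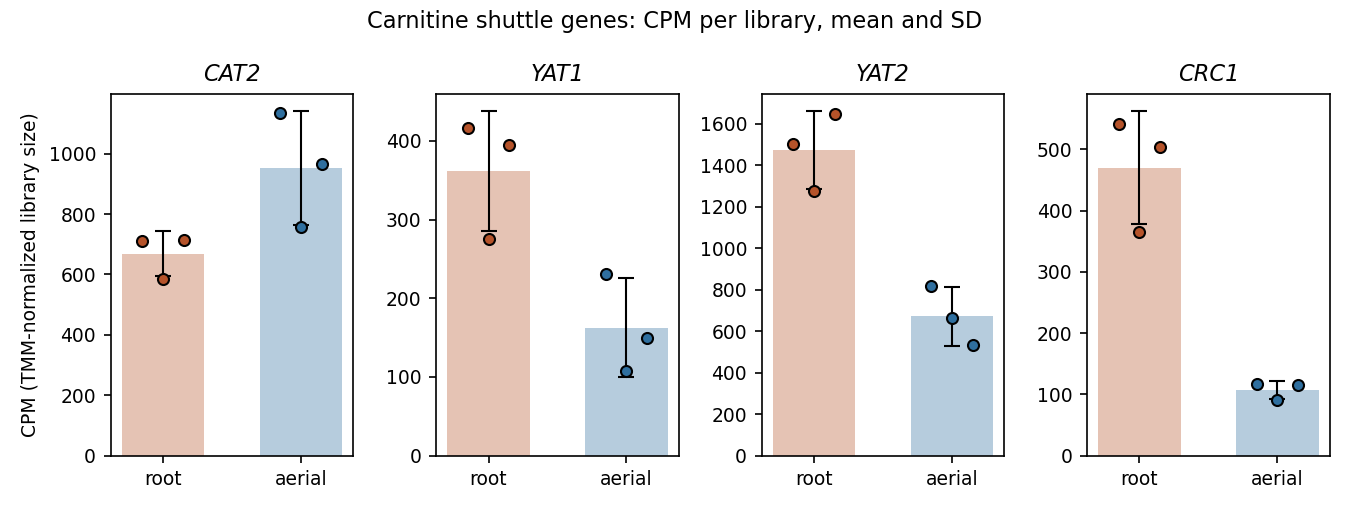
CPM of CAT2, YAT1, YAT2 and CRC1 in each library, with root cells on the left and aerial cells on the right of each panel. Bars are means, error bars SD and points single libraries (n = 3 per cell type), and each y axis starts at 0 with its own scale. Root points lie above aerial points for YAT1, YAT2 and CRC1 and below them for CAT2.

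Within a cell type, root replicate 2 was the lowest root library for each of the 4 genes. The lowest aerial library was replicate 2 for CAT2, YAT1 and CRC1 and replicate 3 for YAT2. The coefficient of variation was 10.9% for CAT2, 21.0% for YAT1, 12.8% for YAT2 and 19.7% for CRC1 in root cells, and 19.8%, 38.6%, 21.2% and 13.7% for the same genes in aerial cells. Counting error was a small part of this, since the smallest count behind any of these values was 1397. Centred on their means over the 6 libraries, the log2 CPM of YAT1, YAT2 and CRC1 correlated with each other at Pearson's r of 0.92 to 0.95, and with CAT2 at -0.35 to -0.67. These coefficients describe 6 libraries of 2 cell types and rest mostly on the difference between the cell types.

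Per kilobase of coding sequence, the order of the genes differed between the cell types. In root cells YAT2 stood first at 532 ± 68.0 CPM per kb, then CRC1 at 478 ± 94.2, CAT2 at 333 ± 36.3 and YAT1 at 175 ± 36.9 (SD, n = 3). Libraries of YAT2 and CRC1 overlapped there, and no other neighbours in the order did. In aerial cells CAT2 stood first at 473 ± 93.9 CPM per kb, then YAT2 at 242 ± 51.4, CRC1 at 109.5 ± 15.0 and YAT1 at 78.7 ± 30.4 (SD, n = 3). There CRC1 and YAT1 overlapped, and CAT2 was above YAT2 in each library.

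The difference between any 2 of the genes was tested as the ratio of their counts within a library, a value that does not depend on how libraries are scaled. CRC1 had 0.762, 0.625 and 0.708 counts per count of CAT2 in root libraries, against 0.103, 0.120 and 0.120 in aerial libraries. This ratio was 6.11-fold higher in root cells, and no other of the 6 pairs differed as much. YAT2 outnumbered CAT2 in each root library, at ratios of 2.11, 2.18 and 2.31, and was below it in each aerial library, at 0.720, 0.875 and 0.552. The ratio of YAT1 to CAT2 was 0.586, 0.470 and 0.554 in root libraries, against 0.203, 0.142 and 0.155 in aerial libraries. The ratios to CAT2 did not overlap between the cell types. This follows from the CPM values, in which CAT2 was lower and the other genes higher in every root library. It is not separate evidence of a difference.

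Among the 3 upregulated genes, CRC1 stood apart from the transferases. It had 1.30, 1.33 and 1.28 counts per count of YAT1 in root libraries, against 0.505, 0.844 and 0.777 in aerial libraries. These ratios are of counts not divided by length, and per kilobase CRC1 was above YAT1 in each library of both cell types. Relative to YAT2, CRC1 was at 0.360, 0.287 and 0.306 in root libraries and at 0.143, 0.137 and 0.218 in aerial libraries. The ratio of YAT1 to YAT2 was 0.277, 0.216 and 0.239 in root libraries and 0.282, 0.162 and 0.280 in aerial libraries, and it overlapped. The mean log2 difference of that pair was 0.05, with SDs of 0.18 in root and 0.46 in aerial libraries, so a difference of the size of that spread was not detectable.

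For 5 of the 6 pairs the two-sided exact permutation test gave p = 0.1, the smallest that 3 against 3 libraries allow, or 0.12 after adjustment over the 6 pairs. For YAT1 over YAT2 the exact permutation p was 1. This exact test could therefore not reach 0.05 for any pair. For the ratios to CAT2, its result was fixed by the separation of the CPM values.

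**Figure D3:**
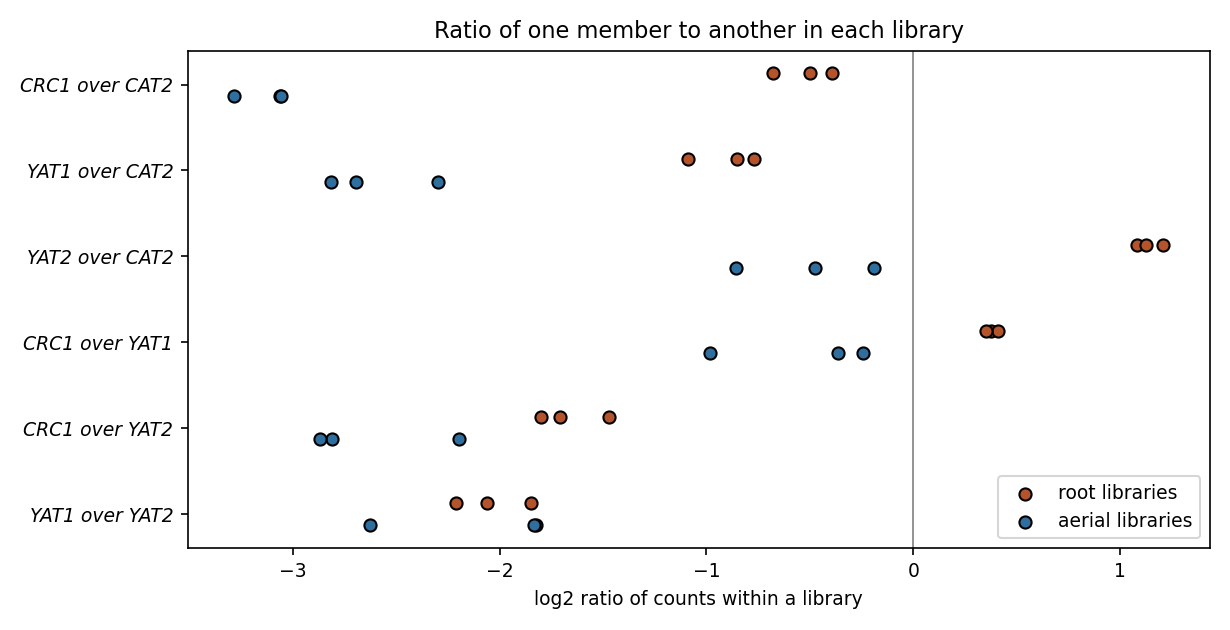
Ratio of the counts of one gene to another within each library, on a log2 scale, for the 6 pairs of genes, with root libraries in the upper and aerial libraries in the lower row of each pair. Each point is 1 library, and the grey line marks equal counts. Root and aerial points are separate for 5 pairs, with the widest gap for CRC1 over CAT2, and they overlap for YAT1 over YAT2.

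The summed level of the 3 transferase genes overlapped between the cell types, while the share of each gene in that sum did not. The summed CPM per kb of the 3 genes was 1096, 884 and 1140 in root libraries, against 971, 668 and 744 in aerial libraries. The mean was 1.31-fold higher in root cells, but the groups overlapped (two-sided exact permutation test, p = 0.2, n = 3 each). CAT2 made up 32.2%, 32.9% and 31.1% of that sum in root libraries, against 58.1%, 56.4% and 64.5% in aerial libraries. CAT2 was thus the majority transferase transcript in aerial cells and a minority one in root cells.

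YAT2 made up 49.4%, 52.0% and 52.2% of the transferase sum in root libraries, against 30.4%, 35.8% and 25.8% in aerial libraries. The share of YAT1 was 18.4%, 15.1% and 16.8% in root libraries, against 11.5%, 7.80% and 9.72% in aerial libraries. No share overlapped between the cell types. The shares of a library are parts of the same sum, so they are not separate results. That of CAT2 had to separate, since CAT2 was lower and YAT1 and YAT2 higher in every root library. How often shares or ratios of other genes separate was not tested. The mean differences were 20.5 percentage points for YAT2, 7.07 for YAT1 and -27.6 for CAT2, each with a two-sided exact permutation p = 0.1, the smallest that 3 against 3 allow. Set against the transferases, the carrier gene CRC1 stood at 50.2%, 42% and 45.0% of the transferase sum in root libraries, against 12.2%, 13.8% and 15.8% in aerial libraries.

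**Figure D4:**
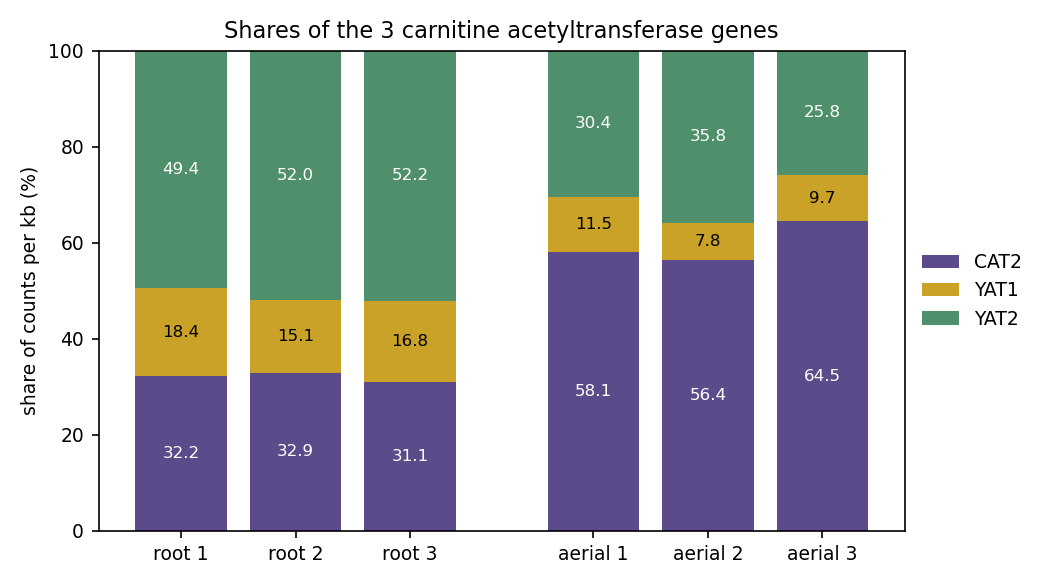
Shares (%) of CAT2, YAT1 and YAT2 in their summed counts per kb, in 3 root libraries (left) and 3 aerial libraries (right), with the share printed in each bar segment. CAT2 takes 31.1% to 32.9% in root libraries and 56.4% to 64.5% in aerial libraries.

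The pathways that the shuttle joins were described from gene lists, in which MDH3, ACO1 and ANT1 each stand in 2 lists and CRC1 in the carrier list. Over all tested loci the median log2 fold change was -0.03. Peroxisomal β-oxidation, the source of acetyl-CoA in peroxisomes, was mostly lower in root cells, with 9 of 16 genes called lower, 1 called higher and a median of -1.10. PXA2, which encodes a subunit of the peroxisomal importer of fatty acids, was at 54.8 ± 8.35 CPM in root cells and 252 ± 21.3 CPM in aerial cells. FOX2, the multifunctional β-oxidation enzyme, was at 391 ± 39.1 CPM in root cells and 1376 ± 284 CPM in aerial cells (SD, n = 3 each). POX1, the acyl-CoA oxidase of the first step, was at 204 ± 23.1 CPM in root cells and 716 ± 145 CPM in aerial cells. The log2 fold changes of PXA2, FOX2 and POX1 were -2.20, -1.82 and -1.81. These genes are named because they had the largest fold changes among those called lower, so they are not compared with CAT2. The gene called higher was ANT1, the peroxisomal carrier of adenine nucleotides, at 2.08-fold, and without aerial replicate 2 it missed the 2-fold limit (log2 fold change 0.96).

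The list of the glyoxylate cycle, which joins acetyl units into precursors of sugars, and of the entry into gluconeogenesis had 4 of 8 genes called, each higher in root cells, and a median of 1.06. MLS1, malate synthase, was at 1728 ± 131 CPM in root cells and 318 ± 114 CPM in aerial cells. CIT2, the citrate synthase of the route that needs no carnitine, was at 2390 ± 321 CPM in root cells and 589 ± 143 CPM in aerial cells (SD, n = 3 each). It was 4.06-fold higher (edgeR adjusted p = 0.00139), close to CRC1. FBP1, the fructose bisphosphatase of gluconeogenesis, was 3.08-fold higher and ICL1, isocitrate lyase, 2.38-fold. ICL1 missed the threshold when root replicate 1 was left out (edgeR adjusted p = 0.0642).

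None of the 16 genes of the TCA cycle in the mitochondrial matrix, where the shuttle delivers acetyl-CoA, was called by edgeR or by DESeq2. In edgeR, 5 of them had an unadjusted p below 0.05 and 1 an adjusted p below 0.05, and the median was -0.24. This was IDH1, a subunit of isocitrate dehydrogenase, named after its value had been seen, at 311 ± 14 CPM in root cells and 174 ± 40.7 CPM in aerial cells (SD, n = 3 each, 1.79-fold higher, edgeR adjusted p = 0.0176). It passed the 2-fold limit without aerial replicate 2 (log2 fold change 1.05). CIT1, the main mitochondrial citrate synthase, was at 928 ± 35.4 CPM in root cells and 1142 ± 41.6 CPM in aerial cells (edgeR adjusted p = 0.298). CIT3, a further mitochondrial citrate synthase, was at 337 ± 47.6 CPM in root cells and 400.0 ± 82.0 CPM in aerial cells (SD, n = 3 each, edgeR adjusted p = 0.434).

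Genes that make or use acetyl-CoA in the cytosol and mitochondria were divided, with 4 of 13 called, each higher in root cells, and a median of -0.22. ALD6 and ALD5, the cytosolic and a mitochondrial acetaldehyde dehydrogenase, were 5.45-fold and 5.16-fold higher. ACH1, a mitochondrial enzyme that passes the CoA group from succinyl-CoA to acetate, was 3.54-fold higher. ACS2, the acetyl-CoA synthetase needed on glucose, was at 379 ± 40.2 CPM in root cells and 132 ± 32.2 CPM in aerial cells. ACS1, the synthetase that glucose represses, was at 3597, 3277 and 3603 CPM in root cells, against 9235, 3548 and 6403 CPM in aerial cells, and overlapped (log2 fold change -0.87, edgeR adjusted p = 0.109). Without aerial replicate 2 it was called at -1.16 (adjusted p = 0.0156).

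CRC1 belongs to the mitochondrial carrier family, of which 12 of 35 genes were called, each higher in root cells, with a median of 0.56. CRC1 had the highest log2 fold change of the 35. It was followed by OAC1, a carrier of oxaloacetate and sulfate, at 1.99 and ODC2, a carrier of 2-oxodicarboxylates, at 1.96, both within the standard error of 0.23 for CRC1. Against the 10.8% of all loci called higher, 34.3% of this family were called higher.

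AGP2, which encodes a plasma membrane protein required for carnitine uptake, was not called. It was at 167, 143 and 166 CPM in root cells, against 275, 90.5 and 168 CPM in aerial cells, so the root values lay within the range of the aerial ones (log2 fold change -0.16, SE 0.35, edgeR adjusted p = 0.747). Without aerial replicate 1 its log2 fold change was 0.30, of the other sign.

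Of 12 regulators of respiratory and fatty acid genes, none was called by edgeR or by DESeq2, and the median was -0.02. In edgeR, however, 4 of them had an unadjusted and also an adjusted p below 0.05, each lower in root cells by less than 2-fold. These 4, named after their values had been seen, encode the CSRE-binding activators Cat8 and Sip4 and the oleate element-binding activators Oaf1 and Pip2. CAT8 was at 224 ± 16.4 CPM in root cells and 446 ± 79.9 CPM in aerial cells (log2 fold change -0.99, edgeR adjusted p = 0.00773). It was called lower without aerial replicate 2 (-1.05), aerial replicate 3 (-1.09) or root replicate 1 (-1.03). SIP4 was at 347 ± 28.6 CPM in root cells and 623 ± 60.5 CPM in aerial cells (SD, n = 3 each, log2 fold change -0.85, edgeR adjusted p = 0.0123). OAF1 and PIP2 had log2 fold changes of -0.56 (edgeR adjusted p = 0.0495) and -0.62 (adjusted p = 0.0317). The transcripts of these 4 activators stood lower in root cells, though none was called. Of the 12 regulators, 6 had a log2 fold change above 0 and 6 below. Among those whose motifs are given above, ADR1 was at -0.34 (edgeR adjusted p = 0.319), RTG1 at 0.21 (adjusted p = 0.453) and RTG3 at -0.07 (adjusted p = 0.82). The share of all loci with an adjusted p below 0.05 at any fold change is not given here. A link between the regulators and the levels of YAT1 and YAT2 was not tested.

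**Figure D5:**
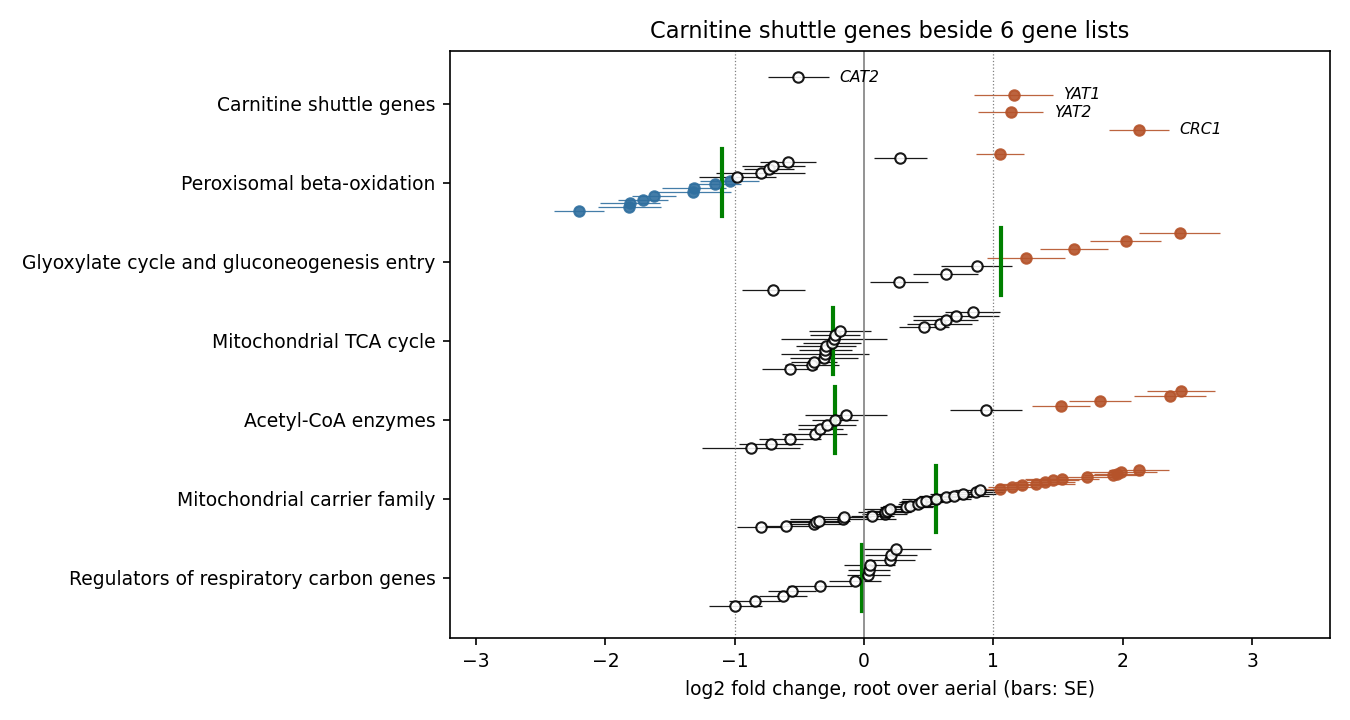
Log2 fold changes, root over aerial, of the 4 carnitine shuttle genes (top) and of 6 gene lists, with 1 point per gene, SE as bars and the median of each list as a green line. Filled orange points were called higher and filled blue points lower in root cells, open points were not called, and dotted lines mark 2-fold. CRC1, YAT1 and YAT2 lie to the right of the 2-fold line, as do the called genes of the glyoxylate and gluconeogenesis list, and CAT2 lies between 0 and the median of the β-oxidation genes (-1.10).

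No annotated gene of R64 overlaps any of the 4 genes. The lncRNA locus named antisense_CAT2 had 0 to 6 counts in root libraries and 4 to 7 in aerial libraries and was too low to be tested. The one named antisense_YAT1 had 7 to 11 counts in root libraries and 6 to 23 in aerial libraries (edgeR adjusted p = 0.317). Beside these antisense counts, YAT1 itself had at least 2002 counts in every library and CAT2 at least 9819. RAS1, which encodes a GTPase and is transcribed away from CRC1 across 965 bases, was the neighbour with the largest fold change. It was at 36 ± 2.00 CPM in root cells and 18.1 ± 1.57 CPM in aerial cells, a log2 fold change of 0.99 (edgeR adjusted p = 0.004), just under the 2-fold limit. It passed that limit without aerial replicate 2 (1.07), root replicate 2 (1.03) or root replicate 3 (1.09).

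No neighbour, RAS1 included, was called. GCD11, 287 bases after YAT2 and encoding the gamma subunit of a translation initiation factor, was at 431 ± 4.74 CPM in root cells and 263 ± 68.2 CPM in aerial cells (SD, n = 3 each) without overlap, in the direction of YAT2 but under 2-fold (log2 fold change 0.71, edgeR adjusted p = 0.0427). PRO3, before YAT2, had a log2 fold change of 0.15 and MST28, before YAT1, of 0.32. RRN11 and VPS71, beside CAT2, were at -0.15 and -0.04, and KTR1, after CRC1, at -0.07. YAR035C-A, 80 bases after YAT1, had 1 count in all.

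The genes with the most similar profiles were found by how far their log2 CPM differed as a root mean square, centred on each gene's mean over the 6 libraries, among protein-coding loci. For CRC1 the nearest were APT1, encoding adenine phosphoribosyltransferase, at 0.155, CIT2 at 0.163 and TRR1, encoding cytoplasmic thioredoxin reductase, at 0.172. CIT2 was thus the second nearest of 5872 genes to CRC1. APT1, CIT2 and TRR1 had log2 fold changes of 1.93, 2.02 and 2.05, beside 2.13 for CRC1. Over 6 libraries of 2 cell types, nearness largely reflects a difference of similar size between the cell types. A closer link of CIT2 to CRC1 was not tested. For YAT2 the nearest were ATR1, a multidrug exporter, at 0.0700, URA5, an orotate phosphoribosyltransferase, at 0.0863 and YMR265C at 0.0864. For YAT1 they were VRG4, the Golgi GDP-mannose transporter, at 0.123, SRB2, a Mediator subunit, at 0.129 and ADH5, an alcohol dehydrogenase, at 0.134. For CAT2 they were THI74 at 0.0642, MDY2 at 0.0659 and ERR3 at 0.0766, with no β-oxidation gene among them. ERR3 belongs to a family of near-identical subtelomeric genes, so its counts are uncertain. Of these 12, ranking by Pearson's r in place of the root mean square kept 2.

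Over the whole series, the libraries summed to 13764726 to 17095539 counts, and TMM factors were 0.871 to 1.09. The 9 genes that the study used as root markers and the 2 it used as aerial markers, all chosen on these libraries, were called in the labelled direction. A list of 8 meiotic genes, a state that aerial cells could hold, was called lower in root cells in all 8, with summed levels of 544 to 738 CPM in root libraries and 2044 to 3109 CPM in aerial libraries. The study had already reported meiosis and sporulation genes as higher in aerial cells from these libraries, and it described sporulation as rare in BR-F colonies. The part of meiotic cells in the values of the carnitine shuttle genes was not tested.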

How the data were processed

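RNA from 3 root and 3 aerial samples was sequenced in strand-specific libraries. The authors mapped the reads to R64 with TopHat2 2.0.14 and assigned them to loci in a strand-specific manner with featureCounts. The authors deposited the raw counts, not normalized and with replicates kept apart. How reads matching several loci were counted is not given in the sources used here. All value columns were used, and 1 line naming no locus (under 4e-05% of any library) was left out.

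Counts were tested with edgeR 4.0.16 in R 4.3.3 (filterByExpr, TMM, quasi-likelihood F test, prior count 2 for log2 CPM, Benjamini-Hochberg over 7971 loci). The unblocked design follows the study's methods. Standard errors are the log2 fold change divided by the square root of F. Ratios, shares and promoters were computed in Python 3.11.15 with scipy 1.17.1, pandas 2.3.3 and biopython 1.88, and copies were sought with BLAST 2.17.0. The edgeR fit was tested on simulated data. The genes and lists were chosen with earlier results of these data known. Named are the 4 genes, antisense loci bearing their names, their neighbours, the 3 nearest profiles of each, AGP2, CIT1, CIT2, CIT3, ACS1, ACS2, ACH1, ICL1 and MLS1, and up to 3 called genes of each list per direction. Alternatives were DESeq2 1.42.0, a likelihood ratio test, other scalings and filters, protein-coding loci alone, glmTreat at 1.2-fold, a replicate block and leaving out each library.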

Additional observations from a re-analysis of the deposited data

How the results depend on the processing

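Under the 10 alternatives of test, scaling, filter and block, 3 of the 4 genes were called higher in root cells, CAT2 was not called, and no log2 fold change left the range of -0.58 to -0.50 for CAT2, 1.08 to 1.2 for YAT1, 1.08 to 1.15 for YAT2 and 2.06 to 2.13 for CRC1. No scaling moved the median of all loci by over 0.1. With 1 library left out, 1 to 3 of the genes were called higher, with log2 fold changes of 0.93 to 1.50 for YAT1, 0.99 to 1.31 for YAT2, -0.65 to -0.36 for CAT2 and 2.02 to 2.32 for CRC1. The count was 1 without aerial replicate 3, which ended the calls of YAT1 and YAT2. The study described aerial replicate 3 as slightly unlike the other aerial replicates in the types of loci its reads mapped to. Its t-tests found no difference. The log2 ratio of YAT1 to YAT2 differed by -0.21 to 0.19 and turned sign without aerial replicate 2 or root replicate 1. The β-oxidation gene called higher, ANT1, was lost under upper quartile scaling (0 called) and without aerial replicate 2 (0 to 1 with 1 library left out). Of the regulators, 1 (CAT8) was called lower under upper quartile scaling and 1 under library sizes alone, and 0 to 1 with 1 library left out. The TCA list gave 0 to 1 called higher and the acetyl-CoA list 0 to 1 called lower. Genes that were not called turned sign for VPS71 (-0.17 to 0.084), PRO3 (-0.10 to 0.44), KTR1 (-0.27 to 0.14) and AGP2 (-0.48 to 0.30). Why these values moved was not tested.

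With replicate number as a block, 3 genes were again called higher, at log2 fold changes of 1.2 for YAT1 (edgeR adjusted p = 0.00572), 1.15 for YAT2 and 2.11 for CRC1, with CAT2 at -0.50. Deviations of root and aerial libraries of the same number correlated at -0.14, 0.14 and -0.04 for numbers 1, 2 and 3. Root replicate 1 correlated best with aerial replicate 3 (0.36). These values gave no sign of pairing by number, but deviations from means of 3 libraries cannot exclude it. Whether the numbers mark a shared harvest is not given in the sources used here. Loci called in all were 1677 with the block and 1593 without it.

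At 1397 counts or more per value, counting error was small for the 4 genes, but 3 libraries per cell type limit every exact test to p = 0.1. The locus antisense_CAT2, at 0 to 7 counts, did not pass the filter, and antisense_YAT1 was tested on only 6 to 23 counts.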

Other observations

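The CSRE letters were matched in the 300-base windows of 13 genes, and all 13 were tested. This set was chosen after the values of YAT1 and YAT2 had been seen. In root cells 3 were called higher, YAT1 and YAT2 among them, and 2 lower, with a median log2 fold change of 0.17, beside 10.8% called higher and 9.2% called lower of all loci tested. With so few genes, nothing is read from these counts. Higher in root cells beside YAT1 and YAT2 was TIF4631, which encodes a translation initiation factor of the eIF4G kind, at 811 ± 35.3 CPM in root cells and 358 ± 205 CPM in aerial cells (SD, n = 3 each, log2 fold change 1.18, edgeR adjusted p = 0.0388). Its call was lost when any library other than aerial replicate 2 was left out, with adjusted p of 0.0806 to 0.0925. The lower ones were LAM4, encoding a sterol-binding protein of membrane contact sites, at a log2 fold change of -1.02 (edgeR adjusted p = 0.0108), and RRT7, at -2.47 (edgeR adjusted p = 0.00113). LAM4 was not called without aerial replicate 1 (-0.78), root replicate 1 or root replicate 3 (-0.95 each), and RRT7 was called whichever of the 6 libraries was left out. SIP4, which encodes a CSRE-binding activator, holds the letters in its own window and was at -0.85. The 8 other genes, SIP4 among them, were not called.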
